A study of Mus musculus with 8 samples.

Results

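The cells the authors labelled GABA were taken from droplet single-cell RNA sequencing of the mouse paraventricular nucleus of the hypothalamus (PVN). They were chosen by the deposited cell type label alone and numbered 2654 of 35672 cells, which is 7.44% of all cells and 37.3% of the cells labelled as neurons. The deposited annotation divides them into 2 clusters, GABA_1 with 1624 cells and GABA_2 with 1030 cells. The 8 libraries came from C57BL/6 mice of both sexes, 2 cohorts and 2 exposures, with each such group held by 1 library and no replicate. In the baseline cohort, at 10 weeks of age, control mice were set beside mice restrained for 15 min (ARS, acute restraint stress). In the cohort named for chronic mild stress (CMS), at 11 weeks of age, unstressed controls were set beside mice given CMS for 21 days and then restraint for 15 min. Tissue of the restrained mice was taken 5 h after restraint. The number of animals behind a library was not given in the sources used here.

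GABA neurons are inhibitory neurons. They make gamma-aminobutyric acid from glutamate with the enzymes encoded by Gad1 and Gad2 and load it into synaptic vesicles with the transporter encoded by Slc32a1. In and around the PVN they inhibit the neuroendocrine neurons that release corticotropin-releasing hormone, and so restrain the hormonal stress response. The table analysed here holds labels and per-cell measures and no gene expression, so the levels of Gad1, Gad2 and Slc32a1 were not analysed here and the label rests on the authors' annotation. For the same reason the 2 clusters are described by their depth, their number of genes, their mitochondrial share and their scores.

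The 8 libraries held 9924892 to 15760435 UMIs (unique molecular identifiers, each counting 1 captured RNA molecule) in 3523 to 5777 cells, and GABA cells supplied 7.27% to 24.8% of a library's UMIs. A barcode was found in more than 1 library 722 times, and 103 GABA cells carried such a barcode. Only 2 of these barcodes joined GABA cells of different libraries, and all cells were kept.

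GABA_1 was the shallow cluster and GABA_2 the deep one. The median GABA_1 cell had 2979 UMIs, with the middle 90% of cells between 1647 and 6475, and 1593 genes. The median GABA_2 cell had 7629 UMIs, with the middle 90% between 4337 and 9252, and 3173 genes (medians over all cells of a cluster). These values describe clusters that were made from the expression of the same cells, so no test was set between them. At least 5000 UMIs were reached by 14.7% of GABA_1 cells and 91.7% of GABA_2 cells. The number of genes per UMI was 0.531 in GABA_1 and 0.418 in GABA_2. Against the curve of genes on UMIs over all cells of the series, GABA_1 cells had 1.07 times and GABA_2 cells 1.05 times as many genes as their depth gave, so both lay slightly above the curve.

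The clusters also differed in the mitochondrial share of UMIs. The median was 14.2% in GABA_1, with 5% of cells under 6.38% and 5% over 25.6%, and 3.28% in GABA_2, with 5% of cells under 2.0% and 5% over 6.12%. A share of at most 10% was found in 20.7% of GABA_1 cells and 99.6% of GABA_2 cells. The median number of mitochondrial UMIs was itself lower in GABA_2, at 243 against 439. Non-mitochondrial UMIs numbered 7346 in the median GABA_2 cell and 2510 in the median GABA_1 cell.

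**Figure D1:**
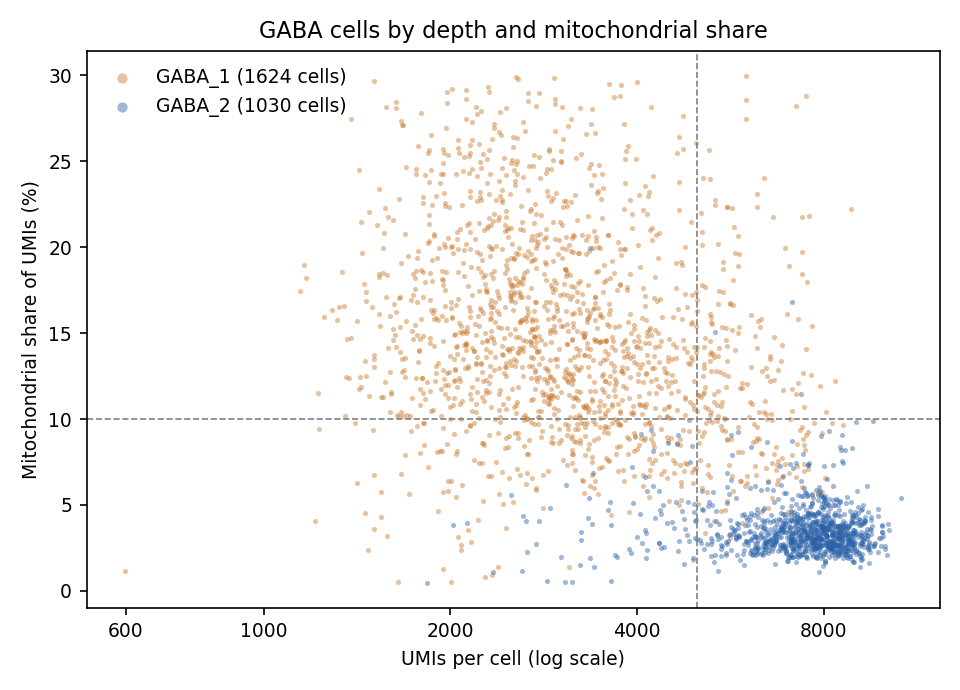
Each point is 1 GABA cell, with UMIs per cell on a log axis and the mitochondrial share of its UMIs in percent, coloured by cluster, with dashed lines at 5000 UMIs and 10%. GABA_2 forms a compact group at the lower right, where 942 of its 1030 cells lie, and GABA_1 spreads over lower depths and higher mitochondrial shares, with 1148 of its 1624 cells at the upper left.

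The corners of the plot of depth against mitochondrial share show where each measure alone would have placed a cell. Of 1040 GABA cells with at least 5000 UMIs and a mitochondrial share of at most 10%, 90.6% were GABA_2. Of 143 cells as deep but above 10%, 3 were GABA_2 and 140 were GABA_1. Of 322 cells under 5000 UMIs and at most 10%, 26.1% were GABA_2, and of 1149 cells under 5000 UMIs and above 10%, 1 was. A deep cell with a high mitochondrial share was thus nearly always labelled GABA_1, and a shallow cell with a low share was labelled GABA_1 more often than GABA_2.

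The clusters kept different mitochondrial shares at like depth. The GABA cells were divided into 6 bins of UMIs with nearly equal numbers of cells. Between 4307 and 6446 UMIs, where 40.3% of cells were GABA_2, the median mitochondrial share was 12.2% in 264 GABA_1 cells and 3.27% in 178 GABA_2 cells. Between 6448 and 7865 UMIs, where 83.3% were GABA_2, it was 9.67% in 74 GABA_1 cells and 3.32% in 368 GABA_2 cells. In GABA_1 the share was 15.7% and 15.8% in the 2 shallowest bins and 9.67% and 9.73% in the 2 deepest, the last with 10 cells. In GABA_2 it stayed between 2.72% and 3.86% in the bins that held at least 10 of its cells.

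The GABA_2 fraction by mitochondrial share changed over a narrow range. It was 96.8% in GABA cells at or under 3%, 95.2% from 3% to 5%, 81 of 162 cells from 5% to 7%, 14.6% from 7% to 10% and 0.176% from 10% to 15%. By depth it was 0.676% in the shallowest bin (599 to 2328 UMIs) and 97.7% in the deepest (7866 to 10645 UMIs).

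**Figure D2:**
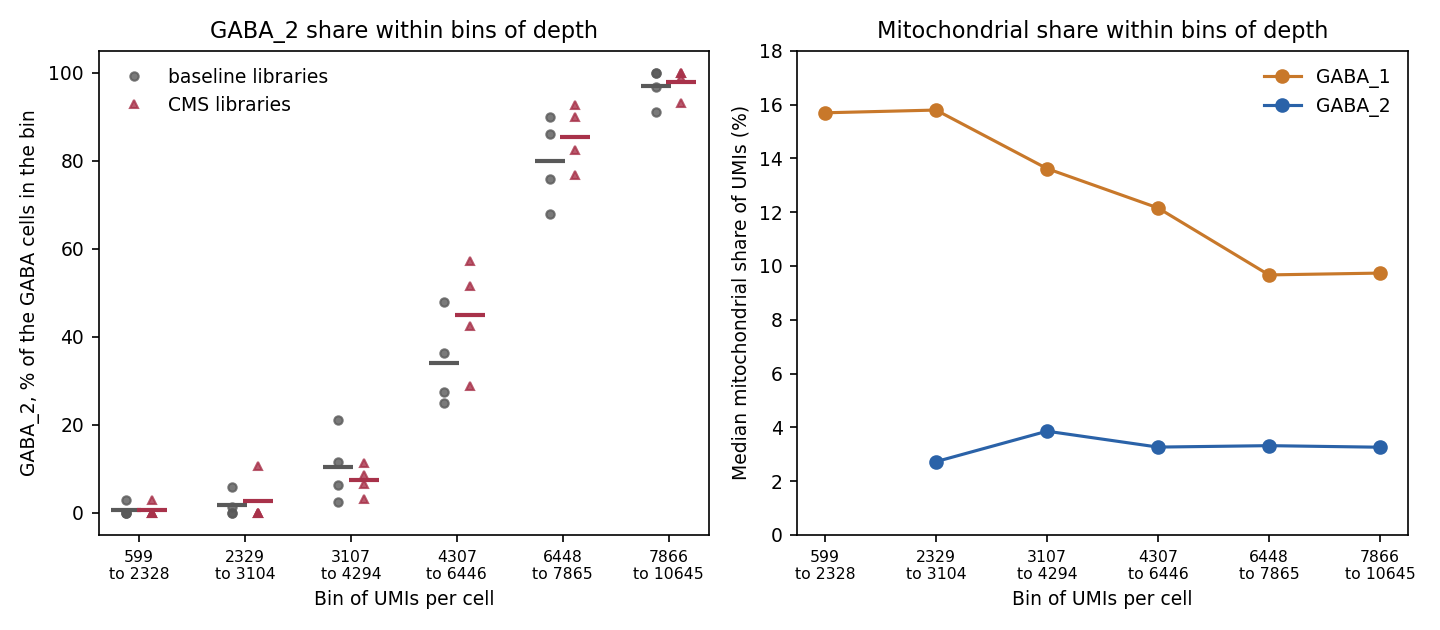
Left, the percentage of GABA cells labelled GABA_2 in 6 bins of UMIs per cell, with 1 point per library and a bar at the mean of the 4 libraries of each cohort; right, the median mitochondrial share in percent of the cells of each cluster in the same bins, drawn where a cluster has at least 10 cells. GABA_2 rises from 0.676% to 97.7% of all GABA cells over the bins, the cohorts overlap in every bin, and GABA_1 lies above GABA_2 in mitochondrial share in each bin drawn.

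Doublet scores, a per-cell measure of how much a cell resembles 2 cells in 1 droplet, did not rise with the depth of the clusters. Their mean was 1.92 in GABA_1 and 1.72 in GABA_2, and a score of 0 was recorded for 10.8% of GABA_1 and 1.84% of GABA_2 cells. Within GABA_1 the median score was higher in deeper bins, from 1.56 in the shallowest to 2.65 in the deepest. Within GABA_2 it was 2.05 between 3107 and 4294 UMIs and 1.57 in the deepest bin. The 98 GABA_1 cells that shared the deep, low mitochondrial corner with GABA_2 had a median score of 2.59, against 1.61 in the 942 GABA_2 cells there.

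S and G2/M scores, which sum up the expression of genes of DNA replication and of mitosis, were low in both clusters. The mean S score was -0.012 in GABA_1 and -0.0045 in GABA_2, and the mean G2/M score was -0.020 and -0.021. Either score was above 0.1 in 24 GABA cells, or 0.904%, and no GABA cell had both above it. The same share was 16.6% among oligodendrocyte precursor cells, a dividing cell type, and 4.12% over all cells.

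Glutamate neurons, the excitatory neurons labelled Glut, were divided by the annotation in the same way. Glut_1 had a median of 2885 UMIs, 1539 genes and a mitochondrial share of 14.5%, close to GABA_1. Glut_2 had 7649 UMIs and 3.47%, and Glut_3 had 6747 UMIs and 3.61%, close to GABA_2. The vasopressin neurons had a deep cluster, AVP_1, with 6399 UMIs and 2.70%, and a cluster AVP_2 of 1236 UMIs and 9.4%, shallower than GABA_1. The clusters Neurons_mixed (1195 UMIs, 19.8%) and Neurosecretory (1218 UMIs, 4.11%) were shallower than either GABA cluster.

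GABA_2 cells also lay close to the upper end of the table. No cell of the series had more than 3499 genes, and 176 of the 369 cells with at least 3400 genes were GABA_2. These were 17.1% of GABA_2 cells, against 7 cells of GABA_1. Of Glut_2 cells 21.8% had as many genes, of Glut_3 cells 6.22% and of AVP_1 cells 2.21%. At the other limit, a mitochondrial share of at least 25%, where the table ends at 29.99%, stood 106 GABA_1 cells (6.53%) and 0 of 1030 GABA_2 cells. There stood also 9.95% of Glut_1, 25.9% of Neurons_mixed, 3.1% of AVP_2 and 3.47% of Neurosecretory cells. How many cells of either GABA cluster lay beyond these limits was not tested.

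The GABA_2 fraction of GABA cells was then followed over the libraries. Intervals beside the shares are exact Clopper-Pearson 95% intervals and cover counting error only. In the baseline cohort the fraction was 35.5% (interval 31.1% to 40.0%) in female controls, 32.6% (26.8% to 38.9%) in male controls, 33.6% (28.7% to 38.8%) in restrained females and 33.7% (26.8% to 41.2%) in restrained males. In the CMS cohort it was 42.1% (37.4% to 46.9%) in female controls, 37.8% (32.0% to 43.9%) in male controls, 50.6% (44.0% to 57.2%) in stressed females and 42.7% (38.2% to 47.2%) in stressed males. All 4 CMS libraries lay above all 4 baseline libraries, and the stressed females of the CMS cohort were highest.

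The cohort means were 43.3% ± 5.34 in the CMS cohort and 33.9% ± 1.18 in the baseline cohort (SD, n = 4 libraries each). In the edgeR quasi-likelihood test over 26 clusters with the cells of their own type as total, the log2 fold of the GABA_2 fraction was 0.35 with an SE of 0.082, a fold of 1.27, and its adjusted p of 0.0502 missed the threshold of 0.05. For the same difference seen from GABA_1, the log2 fold was -0.22 with an SE of 0.070 and an edgeR adjusted p of 0.103. The same test called 2 of 26 clusters, 7.69%, and neither was a GABA cluster. The cohorts did not overlap in 7 of 26 clusters, 26.9%, among them GABA_2 and its mirror image GABA_1. The odds of GABA_2 were on average 1.49-fold higher in the CMS library of a pair matched for sex and exposure, higher in 4 of 4 pairs, with an exact two-sided sign-flip permutation p of 0.13, the smallest that 4 pairs allow. As 4 libraries against 4 without pairs the exact permutation p was 0.0286, also the smallest possible.

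The odds ratios of the pairs were 1.32 in female controls, 1.25 in male controls, 2.02 in stressed females and 1.46 in stressed males. The 2 control pairs hold no mice given chronic stress, and the cohorts also differ in age, so cohort, age and, in stressed mice, chronic stress cannot be told apart. The cohort by stress term was 0.24 on the log2 scale with an SE of 0.15 and an edgeR adjusted p of 0.992.

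The difference between cohorts was then recomputed with depth, mitochondrial share or doublet score in the measure. Standardised over the 6 bins of UMIs, each weighted by its share of all GABA cells, the fraction was 34.6%, 38.1%, 41.9% and 34.7% in the baseline libraries, in the order above, and 41.7%, 33.7%, 43.5% and 40.7% in the CMS libraries. The means were 39.9% ± 4.32 in the CMS cohort and 37.3% ± 3.48 in the baseline cohort (SD, n = 4 libraries each). The cohorts then overlapped, and the odds were 1.11-fold higher in the CMS cohort, higher in 3 of 4 pairs, with an exact sign-flip permutation p of 0.375. The label itself follows the bins, from 0.676% GABA_2 in the shallowest to 97.7% in the deepest. Equal weights for the bins thus take out much of a difference in the fraction by construction. Some libraries also held few cells in a bin, down to 19 between 3107 and 4294 UMIs. Standardised values therefore cannot tell a change of mix from a change of depth. Among cells with a mitochondrial share of at most 10% the edgeR log2 fold was 0.17, with an adjusted p of 0.544. That limit kept 99.6% of GABA_2 but 20.7% of GABA_1 cells. It removed almost only GABA_1 cells, so this fold cannot show what part mitochondrial share has in the cohort difference. Among cells with a doublet score of at most 1, the odds were 1.16-fold higher in the CMS library, higher in 2 of 4 pairs, with an exact sign-flip permutation p of 0.875. The SD of the log2 odds ratio between pairs was 2.24 there, against 0.31 over all GABA cells. Fewer than 80 GABA_2 cells over the 8 libraries met the doublet limit, too few for the edgeR fit of GABA_2. Among cells with at least 2000 UMIs, the odds were 1.51-fold higher in the CMS library, in 4 of 4 pairs, and the edgeR log2 fold was 0.34 with an adjusted p of 0.0899.

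Splits of the same cells by depth or mitochondrial share alone were added after the data were seen. They do not use the cluster label but are not separate from it. At least 5000 UMIs were reached by 91.7% of GABA_2 and 14.7% of GABA_1 cells, so that split largely restates the label. At least 5000 UMIs were found in 43.8%, 37.2%, 35.3% and 42.1% of GABA cells in the baseline libraries, in the order above, and in 45.4%, 50.6%, 54.5% and 47.8% in the CMS libraries, which lay above all baseline libraries. The odds were 1.5-fold higher, in 4 of 4 pairs, with an exact sign-flip permutation p of 0.13. The median UMIs of all cells of a library were 1999 ± 174 in the CMS and 2282 ± 214 in the baseline cohort (SD, n = 4 libraries each). These library medians overlapped between the cohorts, and the split by library was not made in other cell types. Split at a mitochondrial share of 10%, the odds of a low share were 1.29-fold higher in the CMS library, in 3 of 4 pairs, with an exact sign-flip permutation p of 0.25. Without the cells that have 3400 genes or more, the odds of GABA_2 were 1.58-fold higher in 4 of 4 pairs, with an exact permutation p of 0.13.

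**Figure D3:**
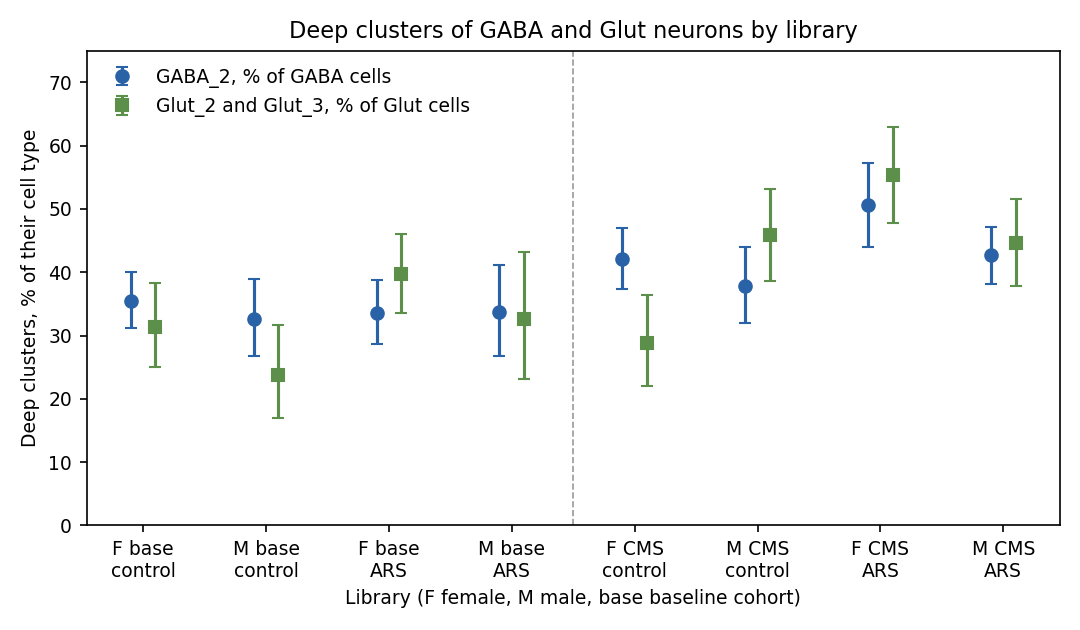
Points give the percentage of GABA cells labelled GABA_2 (circles) and the percentage of Glut cells labelled Glut_2 or Glut_3 (squares) in each of the 8 libraries, with exact 95% binomial intervals and a dashed line between the cohorts. The GABA_2 fraction is 32.6% to 35.5% in the baseline libraries and 37.8% to 50.6% in the CMS libraries, while the Glut fractions of the cohorts overlap.

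The deep clusters of glutamate neurons, Glut_2 and Glut_3 together, made up 31.3%, 23.7%, 39.7% and 32.6% of Glut cells in the baseline libraries, in the same order, and 28.8%, 45.8%, 55.4% and 44.6% in the CMS libraries. The female CMS controls lay below 3 of the 4 baseline libraries, so the cohorts overlapped. In the same edgeR fit the log2 fold between cohorts was 0.53 for Glut_2, with an adjusted p of 0.103. It was 0.24 for Glut_3 with an SE of 0.48, and -0.27 for Glut_1, with edgeR adjusted p-values of 0.849 and 0.257. Whether the cohort difference of GABA_2 is larger or smaller than that of the Glut clusters was not tested.

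Neither stress nor sex gave a difference in the GABA_2 fraction that passed the test. Here and below, the stress term pools restraint alone in the baseline cohort with CMS and restraint in the CMS cohort. It therefore describes neither treatment by itself. The fraction was 40.2% ± 8.18 in stressed and 37.0% ± 4.01 in control libraries (SD, n = 4 each), with overlapping values. The edgeR log2 fold was 0.10 with an SE of 0.082 and an adjusted p of 0.866, and the odds were higher in the stressed library of 3 of 4 pairs. In the baseline cohort stressed and control libraries differed by -1.85 percentage points in females and 1.06 in males, and in the CMS cohort by 8.51 and 4.82. Females stood at 40.5% ± 7.71 and males at 36.7% ± 4.55 (SD, n = 4 each), with a log2 fold of 0.13, an SE of 0.082 and an edgeR adjusted p of 0.420. Of 26 clusters edgeR called 0 in either comparison, with 1 at an unadjusted p under 0.05 for stress and 6 for sex. DESeq2 called 0 in both, and limma on log odds called 0 for stress and 2 for sex, neither of them for a GABA cluster. The sex by stress term was -0.02 with an SE of 0.18 and an edgeR adjusted p of 0.998.

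As shares of all cells, both clusters varied more widely between libraries than their ratio did. GABA_1 was 5.43%, 4.41%, 4.03% and 3.08% of cells in the baseline libraries and 5.52%, 4.39%, 2.31% and 7.86% in the CMS libraries, again in the order female controls, male controls, stressed females, stressed males. GABA_2 was 2.99%, 2.14%, 2.04% and 1.57%, then 4.02%, 2.67%, 2.37% and 5.85%. The stressed males of the CMS cohort were highest in both clusters. In each sex the CMS library held more GABA_2 than the baseline library of the same exposure.

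The edgeR log2 fold between cohorts over 32 clusters was 0.77 with an SE of 0.34 for GABA_2, a fold of 1.71 with an adjusted p of 0.209, and 0.22 with an SE of 0.35 for GABA_1, with an adjusted p of 0.717. Of the 32 clusters 1 was called, 3.12%, and it was no GABA cluster. Without the stressed males of the CMS cohort the values were 0.30 for GABA_2 and -0.27 for GABA_1. Whether the share of a cluster moved through its own cells or through the other cells of a library cannot be told apart from shares.

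The shares of both clusters by stress were then compared between the sexes. Stressed females held 0.742 times the GABA_1 share of their controls at baseline and 0.418 times in the CMS cohort, and stressed males 0.698 and 1.79 times. For GABA_2 the ratios were 0.684 and 0.589 in females and 0.732 and 2.19 in males. The edgeR sex by stress term was -1.05 for GABA_1 with an SE of 0.66 and -1.11 for GABA_2 with an SE of 0.62, both with an adjusted p of 0.904, and 0 of 32 clusters were called by edgeR or DESeq2, with 1 at an unadjusted p under 0.05 in either. Without the restrained males of the baseline cohort the terms were -1.77 and -1.78. Without the stressed males of the CMS cohort they were -0.17 and -0.21. Each of these fits rests on 1 library of stressed males, so only the effect sizes are given. As shares of neurons they were -0.34 and -0.35, both with an edgeR adjusted p of 0.595.

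Depth within each cluster was tested next. The median UMIs of GABA_1 cells were 3277, 2536, 2907 and 2752 in the baseline libraries (female controls, male controls, restrained females, restrained males) and 2842, 3083, 3002 and 3257 in the CMS libraries. Those of GABA_2 cells were 7934, 7796, 6939 and 7946, then 7574, 7655, 7552 and 7476. The restrained females of the baseline cohort were lowest in GABA_2, and in both clusters the cohorts overlapped.

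In limma over the 29 clusters with at least 10 cells in each library, the log2 difference between cohorts was 0.09 with an SE of 0.10 in GABA_1 and -0.01 with an SE of 0.083 in GABA_2, with adjusted p-values of 0.641 and 0.953. The 95% intervals of the folds ran from 0.916 to 1.24 in GABA_1 and from 0.873 to 1.12 in GABA_2. For stress the log2 differences were 0.03 and -0.05, both with an adjusted p of 0.979 in limma, and the intervals of the folds ran from 0.876 to 1.18 and from 0.851 to 1.09. Between the sexes they were 0.05 and -0.04, both with a limma adjusted p of 0.783, with intervals from 0.892 to 1.21 and from 0.856 to 1.10. In none of the 5 comparisons, which include the sex by stress and cohort by stress terms, did limma call any of the 29 clusters, and 1, 1, 4, 1 and 2 clusters had an unadjusted p under 0.05 for stress, sex, cohort, sex by stress and cohort by stress, none of them a GABA cluster.

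**Figure D4:**
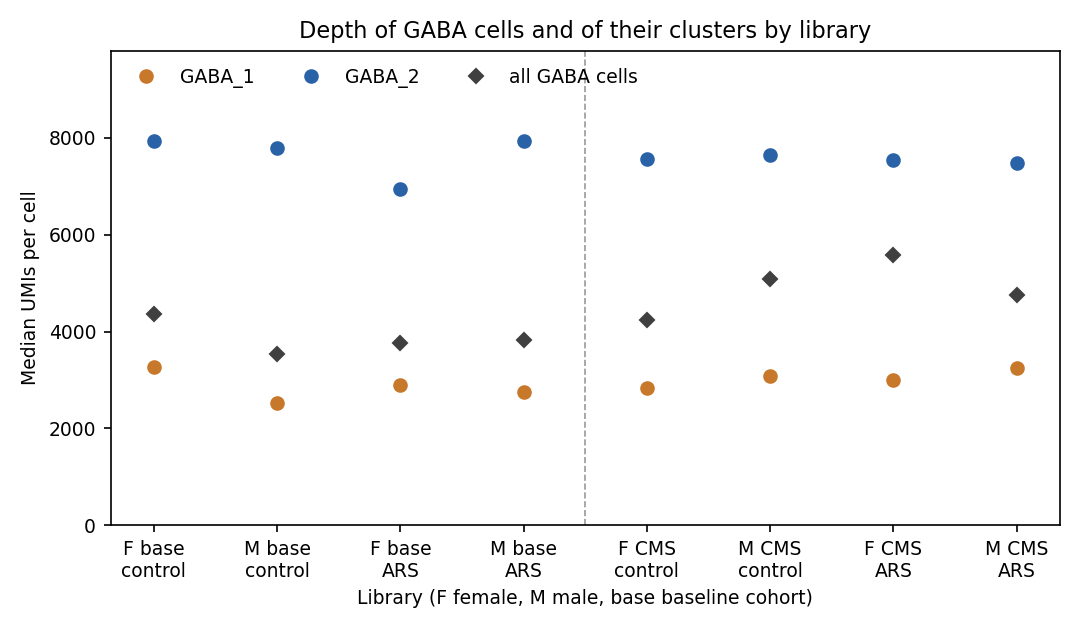
Points give the median UMIs per cell in each of the 8 libraries for GABA_1, GABA_2 and all GABA cells together, with a dashed line between the cohorts. GABA_1 lies between 2536 and 3277 and GABA_2 between 6939 and 7946 in every library, with the cohorts overlapping in both, and the median of all GABA cells lies between them.

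The depth of GABA cells as a whole depends on both the mix of the clusters and the depth within them. The geometric mean of UMIs per GABA cell was 4461 in the CMS cohort and 4040 in the baseline cohort (libraries weighted equally, n = 4 each), a fold of 1.10 or 0.14 on the log2 scale. Split with the mean fractions and depths of the cohorts as weights, the part from the GABA_2 fraction was 0.12 and the part from depth within the clusters 0.02, as a description with no test. The label itself follows depth, with GABA_2 at 0.676% of the shallowest and 97.7% of the deepest bin. The split therefore cannot tell a change of mix from a change of depth. Leaving out 1 library at a time, the mix part ran from 0.09 to 0.14 and the part within clusters from -0.0022 to 0.06. For stress the difference was 0.02, with parts of 0.04 and -0.02.

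Genes per cell, genes relative to depth, mitochondrial share and the doublet, S and G2/M scores were tested in both clusters in the same way, 12 tests in each of the 5 comparisons. Of these, limma called 1, the G2/M score of GABA_2 between the sexes. For the other 4 comparisons it called 0, with 0 of 12 at an unadjusted p under 0.05 for stress, 1 for the cohorts, 1 for sex by stress and 0 for cohort by stress. Over all 29 clusters limma called 3 (10.3%) for the mitochondrial share and 2 (6.9%) for the doublet score between the cohorts, and 1 (3.45%) for the doublet score by sex and stress.

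The mean G2/M score of GABA_2 was -0.0176, -0.0134, -0.0191 and -0.0183 in the 4 female libraries and -0.0242, -0.0253, -0.0231 and -0.0262 in the 4 male libraries (controls then restrained mice at baseline, then the same in the CMS cohort). Every female library lay above every male library. In how many of the 29 clusters the sexes lay apart in this way was not counted. The difference was 0.0076 with an SE of 0.0019 and an adjusted p of 0.0420 in limma, beside an SD of 0.0328 between single GABA_2 cells. Of the 29 clusters 6 were called in this comparison, 20.7%, with 5 of the 6 higher in females, so GABA_2 was 1 of several. Glut_1 was among them, with a difference of 0.0095 and a limma adjusted p of 0.0141. In GABA_1 the difference was 0.0052 with an adjusted p of 0.241. The call of GABA_2 was lost in 10 of 11 alternatives, with limma adjusted p-values from 0.0434 to 0.199, and the difference stayed between 0.0062 and 0.0088.

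The mitochondrial share of GABA_2 was 2.94%, 3.12%, 3.30% and 3.18% in the female libraries and 3.19%, 3.51%, 3.55% and 3.63% in the male libraries, in the same order, so each female library lay below the male library of its own pair. The difference of female minus male was -0.34 percentage points with an SE of 0.088, an unadjusted p of 0.0123 and a limma adjusted p of 0.315, which missed the threshold. The doublet score of GABA_2 was 1.68 ± 0.012 in the CMS and 1.77 ± 0.055 in the baseline cohort (SD, n = 4 libraries each), with a limma adjusted p of 0.138. Both were picked for description after their values were seen.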

How the data were processed

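PVN cells were profiled with 10x Genomics 3' v2 chemistry, per the labels. Per the submitters' processing notes, Cell Ranger 3.0.2 and 3.1.0, build mm10 and Seurat 3.1.3 were used, and the version behind each library was not given in the sources used here. UMIs and genes were deposited as whole-number counts per cell. The deposited mitochondrial share is a fraction, turned into percent here. Doublet, S and G2/M scores were used as deposited, and their tools and any cell filters were not given in the sources used here. Cell types and clusters are the authors' annotation. No cell or doublet was removed here, and cells were joined to libraries by the experiment, sex and condition columns, with the experiment named for acute stress assigned to the baseline cohort.

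Libraries were the replicates. With 1 library per group, p-values measure the spread between these libraries under a model with sex, cohort and exposure as terms. Numbers of cells were tested with edgeR 4.0.16 (quasi-likelihood, no abundance trend) with either the cells of the cluster's type (26 clusters of types with several clusters) or all cells (32 clusters with at least 80 cells) as library size. Tests with limma 3.58.1 took 1 value per cluster and library. It was the log2 of the median UMIs or genes, the median genes relative to depth or mitochondrial percent, or the mean of a score. Benjamini-Hochberg adjustment ran over clusters within a comparison at 0.05, with no adjustment across measures. Log odds had 0.5 added to both counts. Alternatives included DESeq2 1.42.0, limma on log odds, a block for matched pairs, leaving out each library and limits on UMIs, mitochondrial share and doublet score. The edgeR and limma fits, apart from those of the interactions, were first checked on simulated data with a set spread. That check does not give their power at the effects and spread seen here. Intervals used scipy 1.17.1 and R was 4.3.3. The members, lists and tests were chosen with earlier results of these data known. The clusters GABA_1 and GABA_2 are named throughout, other neuron clusters for comparison, and other clusters only where called.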

Additional observations from a re-analysis of the deposited data

Results flagged for a closer look

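Among 108 sets of 4 libraries looked at (6 arms of 18 measures), 5 had a library far from the other 3, where the 95% critical value used flags about 1 in 20 independent sets by chance. These sets share libraries and are not independent. The GABA share of all cells was 13.7% in the stressed males of the CMS cohort, against 4.65% to 6.08% in the other stressed libraries. In the female controls of the baseline cohort, GABA_1 cells had a median of 1705 genes, against 1556 to 1573 in the other female libraries, and a median mitochondrial share of 12.5%, against 15.1% to 15.4%. In the restrained females of the baseline cohort, the mean S score of GABA_1 was -0.016, against -0.0122 to -0.0115 in the other baseline libraries, and the median of UMIs in GABA_2 was 6938.5, against 7796 to 7946.

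The 18 measures were also compared between the sexes and between the cohorts, 36 comparisons in all. In 4 of these the effect of stress had one sign in both pairs of one kind and the opposite sign in both pairs of the other. Such patterns of signs also arise by chance, and the number to be had by chance was not computed. The median mitochondrial share of GABA_1 was 1.54 percentage points higher in stressed mice of the baseline cohort and changed by -0.61 in the CMS cohort, a difference of -2.15 with a limma adjusted p of 0.854. The mean doublet score of GABA_1 changed by -0.138 in females and 0.103 in males, a difference of -0.24 with a limma adjusted p of 0.219. The mean G2/M score of GABA_1 changed by -0.0059 in females and 0.00085 in males, a difference of -0.0068, and that of GABA_2 by 0.0025 and -0.0021, a difference of 0.0046, both with a limma adjusted p of 0.548. No cause was tested for any of these.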

How the results depend on the processing

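Of 564 recomputed values of 40 results, 52 turned direction, all of them differences that had passed no test, and 10 lost and 3 gained a call; the cause was not tested. All 15 alternatives of the GABA_2 fraction between cohorts kept its direction (0.17 to 0.57) and none passed the threshold (adjusted p 0.0573 to 0.544). The 0.57 is the log2 odds ratio of limma on log odds. The others were log2 folds of the fraction, a different scale, and reached at most 0.38. The exact test of the same difference, also a log2 odds ratio (0.57), passed only without pairs. The block for matched pairs gave 0.35 with an edgeR adjusted p of 0.119. The G2/M difference of GABA_2 between the sexes lost its call with library medians (0.0072), with a trend and robust prior (0.0076) and with the pair block (0.0076), and ran from 0.0062 to 0.0088 leaving out 1 library each. The number of further measures called between the sexes, 1 as reported, was 0 with each of these 3 settings and with doublet scores of at most 1, and 0 to 1 leaving out 1 library each. The measure called was then not always the same: without the female baseline controls it was the genes relative to depth of GABA_2 (0.03, limma adjusted p 0.0484), and without the stressed females of the CMS cohort the G2/M score of GABA_1 (0.0080, limma adjusted p 0.0397).

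Values of UMIs within GABA_1 turned to -0.037 (stress, divided by the library median of all cells), -0.015 (stress) and -0.12 (cohort) divided by the median of neurons, -0.085 (sex) and -0.18 (cohort) with doublet scores of at most 1, and -0.0064 (sex) at a mitochondrial share of at most 10%. Their sex by stress term turned to 0.11 and 0.13 with the 2 scalings and 0.40 at the mitochondrial limit, and their cohort by stress term to -0.024 with means and -0.025 at the doublet limit. UMIs within GABA_2 turned to 0.097 (sex) and 0.18 (cohort) relative to all cells and 0.016 (cohort) with means, and their sex by stress term to 0.16 and 0.18 with the 2 scalings. The GABA_2 share of all cells between the sexes turned to 0.032 on log odds, 0.044 with the pair block and 0.13 as a share of neurons. The GABA_2 fraction turned to 0.0094 (log odds), 0.16 (at least 2000 UMIs) and 0.23 (mitochondrial limit) for sex by stress and to -0.00072 (mitochondrial limit) for cohort by stress. The sex by stress term of the doublet score of GABA_1 turned to 0.028 at the doublet limit.

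Leaving out 1 library each, the GABA_1 share of all cells ran from -0.76 to 0.042 (stress), -0.36 to 0.25 (sex), -0.27 to 0.52 (cohort), -1.77 to -0.17 (sex by stress) and -0.79 to 1.32 (cohort by stress), and the GABA_2 share from -0.58 to 0.13 (stress), -0.22 to 0.46 (sex), -1.78 to -0.21 (sex by stress) and -0.21 to 1.58 (cohort by stress). UMIs within GABA_1 ran from -0.040 to 0.12 (stress), -0.039 to 0.11 (sex), -0.34 to 0.052 (sex by stress) and -0.10 to 0.32 (cohort by stress), and within GABA_2 from -0.068 to 0.0034 (sex), -0.061 to 0.015 (cohort) and -0.038 to 0.17 (cohort by stress). The GABA_2 fraction ran from -0.19 to 0.14 for sex by stress. In the library with the fewest GABA_2 cells, 60, the counting interval of the fraction ran from 26.8% to 41.2%.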
